A study of Mus musculus with 4 samples.

Results

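Among 20171 genes measured in single cells of mouse oocytes and preimplantation embryos, 12 named genes had a mean in blastocyst cells at least 4 times that of any stage up to 16-cell: Spp1, Krt8, AA467197, Upp1, Plet1, Tex19.2, AI662270, Gdf3, Glo1, H2-D1, Rnf130 and Csta1. They were selected on their stage means, as the genes whose mean over blastocyst cells was at least 10 copies per 100,000 UMIs and at least 4 times the mean of every stage from oocyte to 16-cell, leaving out symbols made of Gm and a number or ending in Rik. UMIs are molecular tags that count each captured RNA molecule once. Of 16066 named genes, 1666 had a blastocyst mean of 10 or more. Of these, 546 were above every earlier stage, 41 were at least 2 times above and 12 at least 4 times above. No gene left out for its symbol passed both limits. Since these means chose the genes, the difference between blastocyst and earlier stages is given as a description with no test.

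HIT-scISOseq, which reads barcoded full-length cDNA of single cells on a PacBio instrument, was applied to 161 cells of 10 stages. The labels give the strain as DBA/2J x C57BL/6J, and the study's methods give superovulated C57BL/6J females and DBA/2NCrl males, with embryos collected at set times after human chorionic gonadotropin. The metaphase II oocytes (20 h, unmated, 10 cells), zygotes (22 to 24 h, 9 cells), early 2-cell (30 to 32 h, 10 cells of 5 embryos), late 2-cell (46 to 48 h, 11 cells of 6 embryos), 4-cell (54 to 56 h, 17 cells of 5 embryos), 8-cell (68 to 70 h, 26 cells of 4 embryos) and 16-cell cells (78 to 80 h, 38 cells of 4 embryos) carry an embryo number. The 22 cells of the 32-cell stage (78 to 80 h), the 13 cells of early blastocysts (88 to 90 h) and the 5 E14 Tg2A embryonic stem cells (ESCs, a cultured line derived from a blastocyst) carry no embryo or culture number, so they were described cell by cell and entered no test. Another run, numbered 4, held 16 libraries of intact and divided oocytes. All embryos shared the cross.

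The blastocyst is the first stage with separate cell types. An outer epithelium, the trophectoderm, pumps fluid into the cavity and later forms placenta, while the inner cell mass gives the epiblast, from which the fetus and ESCs come, and the primitive endoderm. Trophectoderm is known for the keratin pair Krt8 and Krt18 and for the regulators Cdx2 and Gata3. The inner cell mass is known for Nanog and Sox2, and for secreted factors such as Fgf4.

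A median blastocyst cell held 47437 UMIs, so that 1 UMI was worth 2.11 copies, against 195670 UMIs in a median oocyte, 32481 at the 16-cell stage, 34772 at the 32-cell stage and 22726 in ESCs. Cell 6 of the blastocyst was shallow, with 18215 UMIs. In the study's cell list, all 13 blastocyst cells came from run 1. All 22 32-cell cells came from run 2 and all 5 ESCs from run 3. Stage and run cannot be told apart among these 3 groups. Run 1 also held cells of every stage from oocyte to 16-cell. Its 11 16-cell cells match embryo 1 by number, given that an embryo stayed in 1 run. The 12 genes had 1.16 to 6.30 copies in that embryo, against blastocyst means of 11.8 to 71.9. The 16-cell means helped choose the genes, so this is a description. No barcode of the 161 listed was shared between runs. Sums of marker genes were set beside the labels as a description. The 22 trophectoderm genes summed to 35.4 to 780 copies over blastocyst cells, the 16 inner cell mass and epiblast genes to 593 to 1149, the 15 measured primitive endoderm genes to 9.87 to 53.1, and the 8 measured cumulus and granulosa cell genes to 0 to 3.73. The 8 oocyte markers summed to 164 to 450 copies in blastocyst cells, with a median of 278, against medians of 208 at the 4-cell, 113 at the 8-cell, 199 at the 16-cell and 20.1 at the 32-cell stage and 140.2 in ESCs. H1foo, the oocyte linker histone, had a mean of 139 copies in blastocyst cells and 1593 in oocytes. The part of such oocyte RNA in the levels below was not tested. The 12 genes themselves had means of 0.0391 to 2.20 copies in oocytes.

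**Figure D1:**
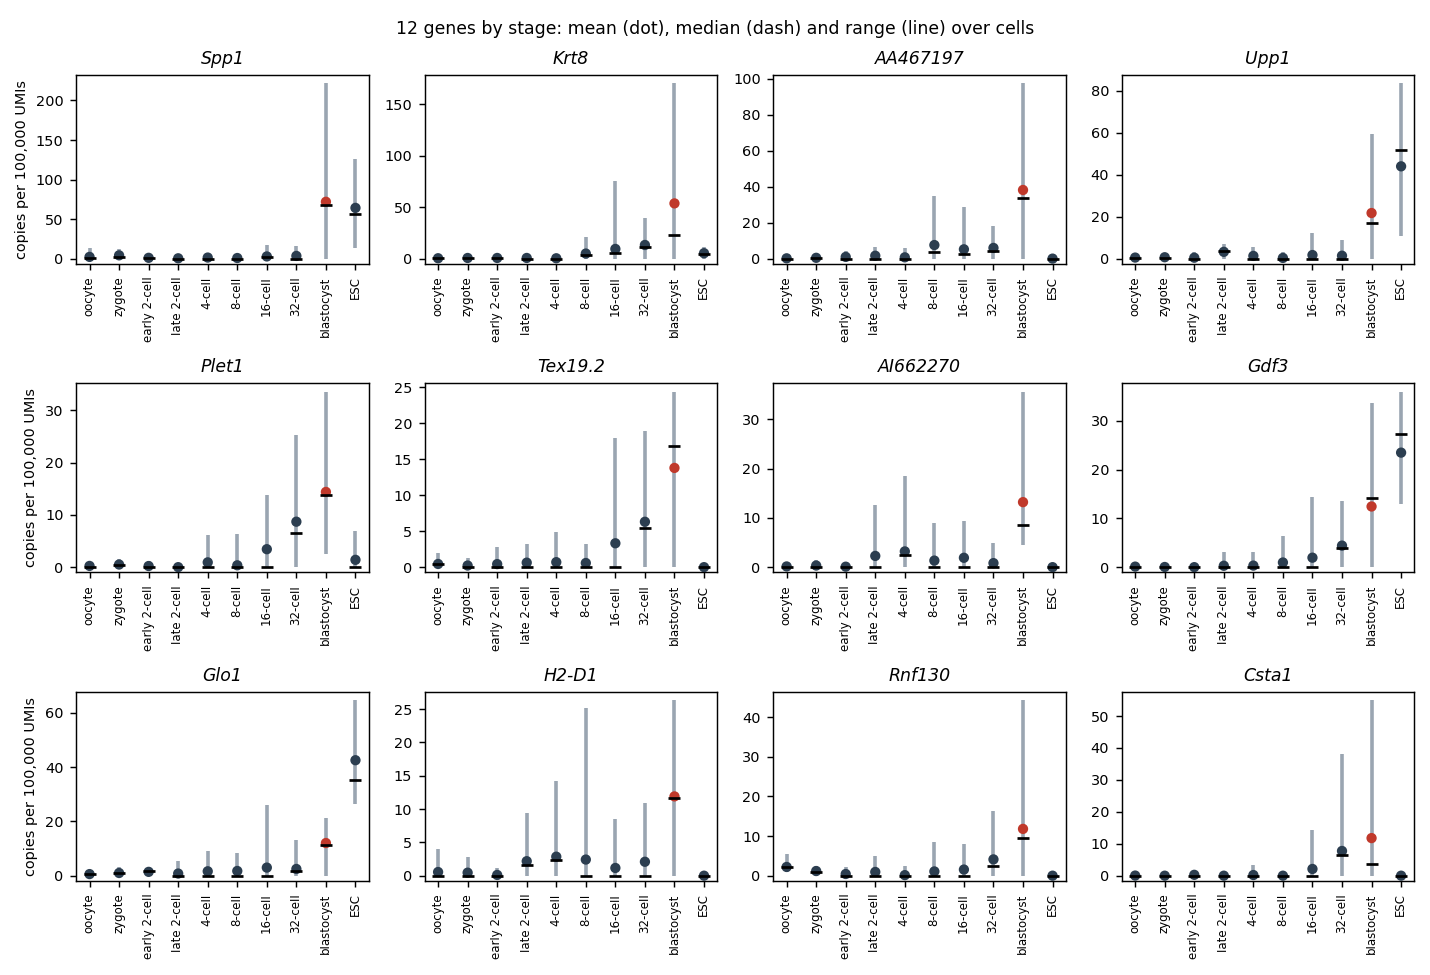
Level of each of the 12 genes (copies per 100,000 UMIs, linear axes of different height) in the 10 stages. Dots are means over cells, dashes medians and grey lines the lowest to highest cell, with the blastocyst in red. Spp1, Upp1, Gdf3 and Glo1 were also high in ESCs, while AA467197, Tex19.2, AI662270, H2-D1, Rnf130 and Csta1 were at 0 there.

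Of the genes associated with trophectoderm, Krt8, the type II keratin of simple epithelia, had 0, 23.1 and 170.2 copies in the lowest, median and highest blastocyst cell, with a mean of 53.6. Its highest earlier mean was 9.41 copies at the 16-cell stage, a ratio of 5.70. The ranges overlapped, since 5 of 13 blastocyst cells exceeded every one of the 121 earlier cells and 1 earlier cell, of the 16-cell stage at 75.8 copies, exceeded the blastocyst mean. Csta1, a stefin that inhibits cysteine proteases, had 0, 3.56 and 54.9 copies with a mean of 11.8, against 2.11 at the 16-cell stage. Plet1, a surface protein first described in placenta, had 2.44, 13.7 and 33.6 copies with a mean of 14.4, against 3.44 at the 16-cell stage, and was detected in all 13 blastocyst cells. Stefins form a gene family with similar sequences, so Csta1 reads may be split with its copies. Plet1 overlaps the antisense gene Plet1os, whose blastocyst mean was 0.179 copies.

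Spp1 and Gdf3 belong to the inner cell mass list. Spp1, which encodes the secreted matrix protein osteopontin, stood farthest from earlier stages, with 0, 67.6 and 222 copies in the lowest, median and highest blastocyst cell. Its mean of 71.9 copies was 17.3 times the highest earlier mean, which was 4.16 copies in zygotes. No earlier cell reached the blastocyst mean, and 8 of 13 blastocyst cells lay above the highest earlier cell at 17.1 copies. Gdf3, a ligand of the transforming growth factor beta family, had 0, 14.2 and 33.7 copies with a mean of 12.4, against 1.94 at the 16-cell stage. Here 5 blastocyst cells lay above every earlier cell and 2 had no Gdf3 UMI.

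A pair of enzymes was in the set. Upp1, uridine phosphorylase, which splits uridine into uracil and ribose phosphate, had 0, 17.0 and 59.6 copies with a mean of 21.7. Its highest earlier mean was 3.23 copies in the late 2-cell embryo, and 8 blastocyst cells exceeded the highest earlier cell. Glo1, glyoxalase 1, which detoxifies methylglyoxal, had 0, 11.3 and 21.1 copies with a mean of 12.02 against 2.98 at the 16-cell stage. No blastocyst cell exceeded the highest earlier Glo1 cell, which had 26.0 copies at the 16-cell stage, so for Glo1 the means differed while the ranges did not separate. Glo1 overlaps other annotated genes on both strands, Dnah8 and 1700097N02Rik among them, with blastocyst means of 0.371 and 0 copies.

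The other 5 genes have varied roles. AA467197, a small mitochondrial protein gene that also hosts the microRNA gene Mir147, had 0, 33.7 and 97.5 copies with a mean of 38.2, against 7.55 at the 8-cell stage. AI662270, annotated as a non-coding processed transcript, had 4.57, 8.49 and 35.6 copies with a mean of 13.2, against 3.20 at the 4-cell stage. With Plet1, AI662270 was 1 of only 2 genes of the set with a UMI in every blastocyst cell, and it overlaps the pseudogene Gm11427 on the same strand. Tex19.2, a germline gene with the close paralog Tex19.1, had 0, 16.9 and 24.4 copies with a mean of 13.8, against 3.32 at the 16-cell stage. H2-D1, a class I major histocompatibility heavy chain with similar paralogs, had 0, 11.6 and 26.3 copies with a mean of 11.9, against 2.85 at the 4-cell stage. Rnf130, a membrane ubiquitin ligase of the Goliath kind, had 0, 9.43 and 44.3 copies with a mean of 11.8, against 2.20 in oocytes. Reads of Tex19.2 and H2-D1 could be split among their paralogs by the counting.

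In the mouse build GRCm38 the genes span Spp1 at chr5:104435118-104441050, Krt8 at chr15:101996698-102004482, AA467197 at chr2:122636986-122641191, Upp1 at chr11:9118103-9136170, Plet1 at chr9:50494525-50505482, Tex19.2 at chr11:121116215-121118677. The others span AI662270 at chr11:83223576-83226604, Gdf3 at chr6:122605403-122610087, Glo1 at chr17:30584936-30626871, H2-D1 at chr17:35262730-35267499, Rnf130 at chr11:50025346-50104758 and Csta1 at chr16:36119946-36131241.

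The limits fell in gaps between values, but the genes that passed changed with the cells and summaries used, as given with the alternatives below. Glo1 left the set without blastocyst cell 1, 2, 5, 7, 10 or 12. Glo1, AI662270 and Tex19.2 lay just inside the ratio of 4, at 4.03, 4.13 and 4.15, and Krt18, Scd2 and Lrp2 just outside, at 3.12, 3.12 and 2.94. Krt18, the type I partner of Krt8, had a mean of 50.5 copies in blastocyst cells and 16.2 at the 16-cell stage. Csta1, Rnf130 and H2-D1 lay just inside the mean of 10 copies, at 11.8, 11.8 and 11.9, while Tspan8, Cnpy2 and Tat met the ratio at means of 8.42, 8.20 and 7.52. The ratio used stage means, and single embryos could be closer. Against the highest 16-cell embryo, the ratio was 1.68 for Glo1, 2.23 for Gdf3, 2.57 for Tex19.2, 3.53 for Krt8 and 3.69 for Plet1. For the other genes it was 4.21 (Csta1) to 17.5 (Spp1). Tex19.2 was at 0 in 16-cell embryos 3 and 4.

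Of 15 gene lists examined, 4 held a member. Krt8 was 1 of 22 trophectoderm genes and 1 of 30 measured keratin and actin cytoskeleton genes, Spp1 and Gdf3 were 2 of 16 inner cell mass and epiblast genes, and Spp1 was 1 of 21 measured matrix and secreted protein genes. Of the 7 trophectoderm genes with a blastocyst mean of 10 or more, 5 were above every earlier stage, with a median ratio of 2.36 over the 7. The corresponding count was 4 of 8 for the inner cell mass list, with a median ratio of 1.12. The same count was 10 of 13 for keratins and actin cytoskeleton, 6 of 12 for endocytosis and lysosome, 6 of 10 for redox, 5 of 6 for lipid, sterol and prostaglandin handling, 3 of 5 for glucose transport and glycolysis, 2 of 5 for cell junctions and 2 of 3 for matrix genes. It was 0 of 3 for oocyte markers and 0 of 1 each for the primitive endoderm, ion pump and channel, and imprinted gene lists, while the cumulus cell and FGF signalling lists had no gene at 10 copies or more. Over all named genes it was 546 of 1666. Cdx2 itself had a mean of 2.41 copies in blastocyst cells and 5.16 at the 16-cell stage, and Gata3 9.84 and 4.02 copies.

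The values of the 32-cell cells did not enter the choice, but the blastocyst and 16-cell means they are set against did. The 32-cell mean was below the blastocyst mean for all 12 genes, and the median gene stood at 22.6% of its blastocyst mean, with a range of 4.76% to 65.7%. Over the 1666 named genes with a blastocyst mean of 10 or more, the median was 92.6%. The choice of genes for a high blastocyst mean favours a low percentage, so nothing is read from that gap. Against the 16-cell mean, 9 of 12 genes had a higher 32-cell mean, beside 52.0% of the 1666 genes, and the choice of genes for a low 16-cell mean favours such a count. The exceptions were Upp1, AI662270 and Glo1, at 0.803, 0.432 and 0.830 times their 16-cell mean.

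Csta1 and Plet1 were closest to their blastocyst level at the 32-cell stage. Csta1 had 0, 6.45 and 38.1 copies in the lowest, median and highest 32-cell cell, with a mean of 7.74, or 65.7% of the blastocyst mean and 3.67 times the 16-cell mean. Plet1 had 0, 6.61 and 25.4 copies with a mean of 8.70, or 60.4%, and was detected in 20 of 22 cells. For both genes the ranges of 32-cell and blastocyst cells overlapped over most of their span. Tex19.2 (mean 6.31 copies, 45.7%), Gdf3 (4.42, 35.5%), Rnf130 (4.12, 34.9%) and Krt8 (13.2, 24.7%) were intermediate. Krt8 had 0, 11.1 and 39.4 copies in 32-cell cells, so every 32-cell cell lay below the 5 highest blastocyst cells.

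Spp1, AI662270 and Upp1 were the farthest below their blastocyst level at the 32-cell stage. Spp1 had 0, 0 and 16.4 copies in the lowest, median and highest 32-cell cell, with a mean of 3.42, or 4.76% of the blastocyst mean. AI662270 had a mean of 0.821 copies, or 6.22%, with 8 UMIs in 5 of 22 cells, and Upp1 a mean of 1.38 copies, or 6.33%, with 12 UMIs in 5 cells. AA467197, H2-D1 and Glo1 stood between, at 15.6%, 17.6% and 20.6%. With each cell thinned to 10000 UMIs, Spp1 was detected in 3 of 22 32-cell cells and 10 of 13 blastocyst cells, and before thinning in 10 and 11. Plet1 was detected in 12 and 9 after thinning, and in 20 and 13 before.

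**Figure D2:**
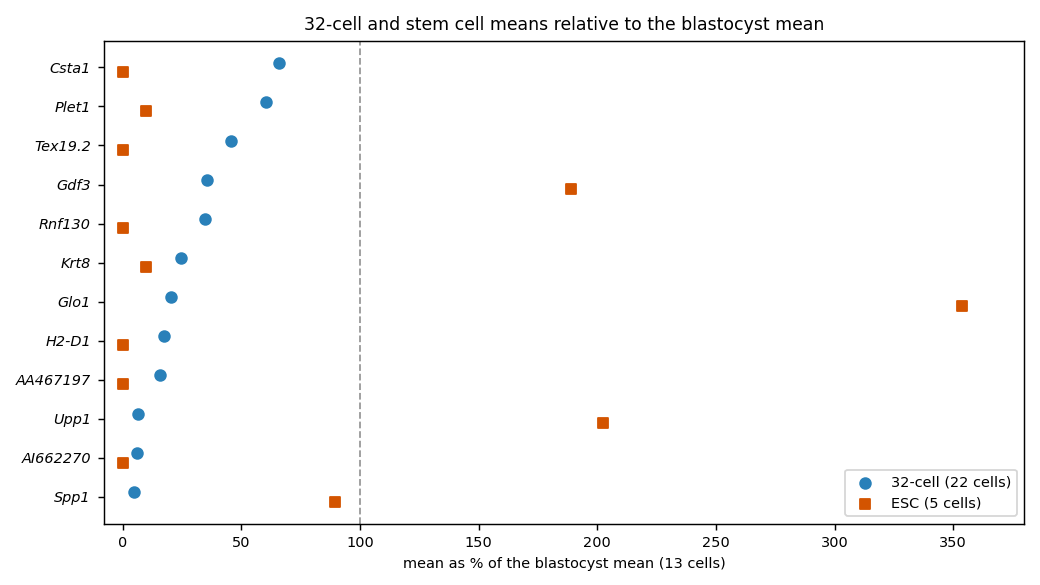
Mean over 32-cell cells (blue circles, 22 cells) and over ESCs (orange squares, 5 cells) as a percentage of the blastocyst mean of the same gene, with the dashed line at 100%. All 12 genes lay below 100% at the 32-cell stage, and Upp1, Gdf3 and Glo1 lay above it in ESCs.

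ESCs differed by gene. Upp1, Gdf3 and Glo1 were higher in ESCs than in blastocyst cells, Spp1 was similar, and 6 genes had no UMI in any ESC. An ESC mean above the blastocyst mean was found for 3 of 12 genes, beside 40.4% of the 1666 genes, and the choice for a high blastocyst mean favours a low count. Glo1 had 26.4, 64.5, 31.9, 54.6 and 35.05 copies in ESC 1 to 5 (354% of the blastocyst mean), and all 5 ESCs exceeded every blastocyst cell. Upp1 had 83.6, 51.6, 59.9, 10.9 and 14.0 copies (202% of the blastocyst mean). ESC 2, 4 and 5 lay inside the blastocyst range of 0 to 59.6 copies, with ESC 4 and 5 below its median of 17.0, and ESC 3 was just above that range. Gdf3 had 13.2, 12.9, 35.9, 27.3 and 28.0 copies (189%). Spp1 varied widely, with 26.4, 99.0, 55.9, 126 and 14.0 copies (89.3%), and overlapped the blastocyst cells throughout.

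Krt8 was low but present in ESCs, at 4.40, 0, 3.99, 10.9 and 7.01 copies (9.82% of the blastocyst mean), and Plet1 had 1 UMI, in ESC 5. AA467197, Tex19.2, AI662270, H2-D1, Rnf130 and Csta1 had none, 6 of 12 genes beside 2.64% of the 1666. The 1666 genes were not matched for level, and the choice held the earlier means of the 12 low, so nothing is read from that gap. The 5 ESCs summed to 103590 UMIs, so a count of 0 allows up to 2.90 copies (3 UMIs over the group, counting error only). With UMIs summed over the blastocyst cells in the same way, AA467197, at 39.8 copies, was at least 13.7-fold higher in blastocyst cells than in ESCs. The bound for the other 5 genes was at least 3.31-fold for Csta1, the lowest, to at least 4.96-fold for Tex19.2, the highest. These comparisons rest on 5 cells of 1 run.

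The 12 genes had a median coefficient of variation (SD over mean) across blastocyst cells of 0.733, against 0.389 over the 1666 genes. These are the values that chose the genes, and the 1666 genes were not matched for level, so nothing is read from that gap. Csta1 (1.42), Rnf130 (1.14), Krt8 (1.09), Spp1 (0.942) and Upp1 (0.898) were the most variable, and Tex19.2 (0.536) and Glo1 (0.565) the least. Relative to counting error alone, the variance of UMIs was 28.8 times as large for Spp1 and 26.7 times for Krt8, but 1.47 times for Tex19.2 and 1.44 times for Glo1. Thus for Tex19.2 and Glo1 little spread remained beyond counting at this depth.

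High Krt8 and high Spp1 were found in different cells. Krt8 had 101, 170.2, 91.2, 105 and 133 copies in blastocyst cells 4, 6, 10, 11 and 13, where Spp1 had 1.97, 0, 10.6, 0 and 11.4 copies. In cells 1, 2, 3, 5, 7, 8, 9 and 12, Spp1 had 132, 117, 222, 67.6, 129, 93.1, 92.4 and 58.4 copies, where Krt8 had 14.3, 7.31, 3.73, 23.1, 0, 9.31, 30.2 and 8.85. The ranges of neither gene overlapped between these lists of cells, which were set out by the values themselves. Over the 13 cells Spearman's rho of the pair was -0.85 and Pearson's r -0.81. The cells share 1 library pool and differ in depth, and rho with total UMIs was -0.21 for Krt8 and -0.01 for Spp1.

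The other genes were set against the same cells by 2 sums, that of the trophectoderm list and that of the inner cell mass list, each without the gene itself. The trophectoderm sum without any member was 376 to 609 copies in cells 4, 6, 10, 11 and 13 and 31.7 to 183 in the other 8, and the inner cell mass sum 590 to 690 and 775 to 987. Most of the latter was Dppa5a, with a mean of 586 copies. Single markers varied, and Nanog had a Spearman's rho of -0.12 with Spp1 and 0.05 with Krt8, following neither. Sox2 had 0.38 and -0.62, Pou5f1 0.54 and -0.46, Fgf4 0.71 and -0.59, and Tdgf1 0.89 and -0.81. Of trophectoderm markers, Krt18 had -0.91 with Spp1 and 0.88 with Krt8, Gata3 -0.79 and 0.90, Dab2 -0.76 and 0.85, and Cdx2 -0.45 and 0.73. Lgals3, of the same list, had -0.17 and 0.17, following neither, at a blastocyst mean of 0.614 copies. Spearman's correlation with the trophectoderm sum was 0.89 for Krt8 and 0.89 for Csta1. It was -0.87 for Upp1, -0.84 for Rnf130, -0.76 for Spp1 and -0.75 for Gdf3, and these 4 genes had rho of 0.78 to 0.85 with the inner cell mass sum.

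The cells themselves show the same arrangement. Csta1 had 15.8, 54.9, 33.9, 20.7 and 16.0 copies in cells 4, 6, 10, 11 and 13 and at most 5.66 in the other 8 cells. Rnf130 had 0, 0, 0, 0 and 4.57 copies in those 5 cells and 2.44 to 44.3 in the other 8. Upp1 had 9.87, 5.49, 2.12, 0 and 0 copies there and 16.0 to 59.6 in the other 8, with no overlap. Glo1, AI662270 and AA467197 had intermediate rho of -0.57 to -0.54 with the trophectoderm sum. Tex19.2 (-0.32), H2-D1 (0.16) and Plet1 (0.36) followed neither sum closely. Cell 6, the shallow one, had the highest Krt8, Csta1 and trophectoderm sum and no UMI of Spp1, Gdf3, Glo1, Tex19.2 or Rnf130, and its depth cannot be told apart from its type by these counts.

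**Figure D3:**
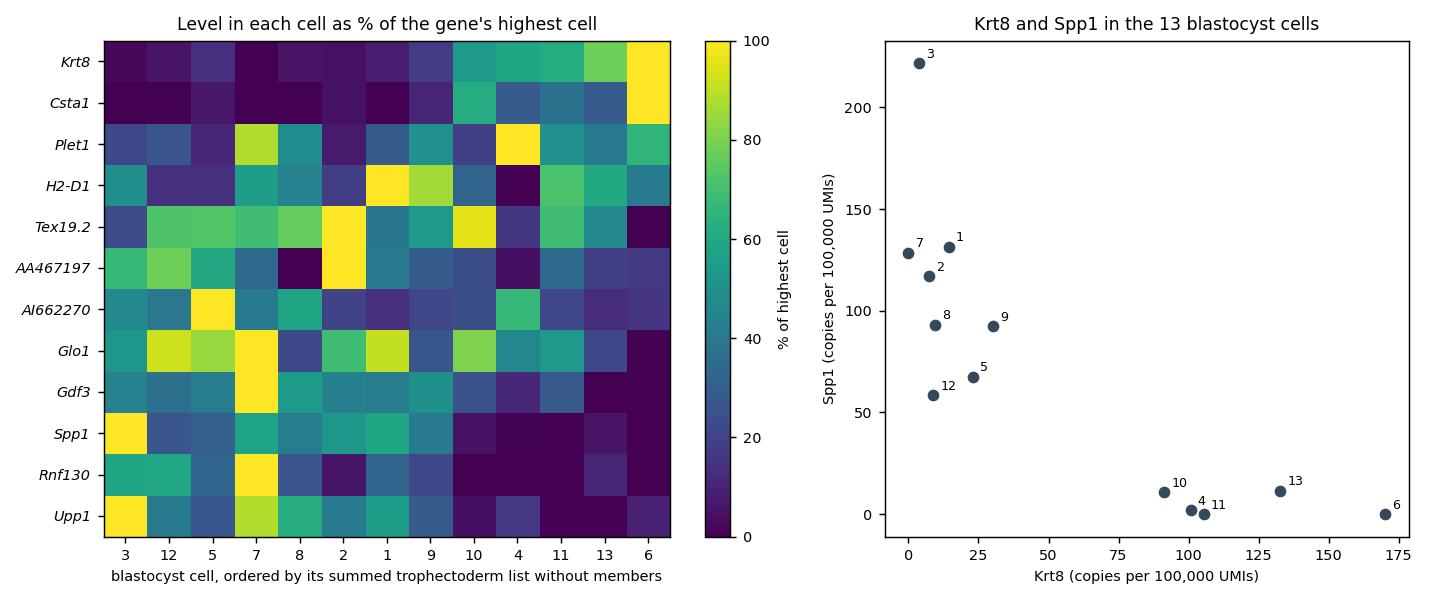
Left, level of the 12 genes in each of the 13 blastocyst cells as a percentage of the gene's highest cell, with cells ordered by the trophectoderm sum without members and genes by their rho with it. Right, Krt8 against Spp1 in copies per 100,000 UMIs, each dot labelled with its cell number. Cells 10, 4, 11, 13 and 6 hold high Krt8 with Spp1 at 11.4 copies or less, and the other 8 hold Spp1 at 58.4 or more with Krt8 at 30.2 or less.

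Adjacent stages from oocyte to 16-cell were compared with each other. The choice held each of their means to a low share of the blastocyst mean, which leaves out genes that were high early, so counts of calls over the set are a description and are no evidence about its direction. Embryo means on the log2(copies + 1) scale were fitted for all genes with limma, and 11 of the 12 genes passed the filter on low values, Csta1 being the exception. A gene was called at a log2 fold change beyond 1 with an unadjusted p under 0.01, the limits of the study. Krt8 and AA467197 were called higher in 8-cell than in 4-cell embryos, 2 of 11 genes, where 4.47% of 11682 genes tested were called higher and 10.5% lower. Plet1 and Tex19.2 were called higher in 16-cell than in 8-cell embryos, where the background was 1.90% higher and 1.46% lower. Upp1 and AI662270 were called higher in late than in early 2-cell embryos, where the background was 25.6% higher and 22.8% lower, so their share of 2 in 11 was no larger than that of all genes. No member was called lower by limma at any step. The cell list gives the run by stage and only in part by embryo. The numbers of cells per run match those per embryo if 8-cell embryos 3 and 4 and 16-cell embryos 3 and 4 made up the cells of run 3 at their stages, given that an embryo stayed in 1 run. For the 4-cell and 2-cell embryos the runs were not assigned here, so those steps were not computed within runs.

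Krt8 embryo means were 0, 0, 0, 0.598 and 0.858 copies in the 5 4-cell embryos and 0, 4.85, 5.79 and 6.15 in the 4 8-cell embryos. All 8-cell embryos but embryo 3 lay above every 4-cell embryo, and the log2 fold change was 2.07 (SE 0.44, limma adjusted p = 4.64e-04). AA467197 embryo means were 0, 0, 0, 0.602 and 2.46 copies in 4-cell and 2.89, 4.76, 6.05 and 15.2 in 8-cell embryos. The groups did not overlap, and the log2 fold change was 2.39 (SE 0.46, adjusted p = 1.18e-04). Neither gene was called from 8-cell to 16-cell, where Krt8 had a log2 fold change of 0.58 (SE 0.41) and AA467197 of -0.39 (SE 0.43).

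Plet1 embryo means were 0, 0, 0.406 and 0.797 copies in the 8-cell and 2.165, 3.14, 3.58 and 3.90 in the 16-cell embryos. The groups did not overlap, and the log2 fold change was 1.69 (SE 0.33, adjusted p = 0.00189). The 4-cell embryos 1 and 2 had also held Plet1, at 2.69 and 2.45 copies. Tex19.2 was at 0 in 16-cell embryos 3 and 4 and at 4.16 and 5.37 copies in embryos 1 and 2, so the 16-cell embryos were divided. Its log2 fold change was 1.17 (SE 0.40) with an adjusted p of 0.152 by limma, so it fails the correction. The embryos at 0 at the 16-cell stage were those of run 3, where 8-cell embryos 3 and 4 were also at 0, while 8-cell embryos 1 and 2 had 1.14 and 0.735 copies. Within run 3 Plet1 had 0 and 0.406 copies in the 8-cell and 3.14 and 2.165 in the 16-cell embryos. With the 8 embryos of these stages fitted alone and run 3 as a term, an alternative chosen after seeing the data, Plet1 had a log2 fold change of 1.66 (SE 0.30, adjusted p = 0.322) and was called, and Tex19.2 had 0.92 (SE 0.35, adjusted p = 0.470) and was not. Without run 3 as a term, the fit of these 8 embryos gave Plet1 1.69 (adjusted p = 0.314) and Tex19.2 1.05 (adjusted p = 0.661), and again only Plet1 was called. Without 16-cell embryo 1 or 2, or 8-cell embryo 3 or 4, Tex19.2 was not called and only Plet1 was, while without 16-cell embryo 3 or 4 Upp1 was called as well.

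Upp1 embryo means were 0, 0, 0, 0.5264 and 1.64 copies in early and 0, 2.50, 2.75, 3.75, 5.56 and 5.99 in late 2-cell embryos. All late embryos but 1 were above all early ones, with a log2 fold change of 1.33 (SE 0.40, adjusted p = 0.00376). AI662270 had 0, 0, 0, 0 and 0.474 copies in early and 0, 0, 0, 1.47, 4.76 and 6.32 in late 2-cell embryos, a log2 fold change of 1.27 (SE 0.42, adjusted p = 0.00829). Neither gene was called with a pseudocount of 0.1 or 10, and without late 2-cell embryo 2 or 3, the embryos with the most AI662270, AI662270 was not called.

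The remaining steps gave no calls by limma. From oocyte to zygote the background was 2.92% higher and 0.325% lower, and only Rnf130 had an unadjusted p under 0.05, with a log2 fold change of -0.67 (SE 0.22, adjusted p = 0.0267), below the size limit. From zygote to early 2-cell (4.52% higher and 2.75% lower) and from late 2-cell to 4-cell (2.41% and 4.28%) no member had an unadjusted p under 0.05. On the same genes DESeq2 called no member at these 3 steps either, while edgeR called Spp1 lower in early 2-cell embryos than in zygotes.

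**Figure D4:**
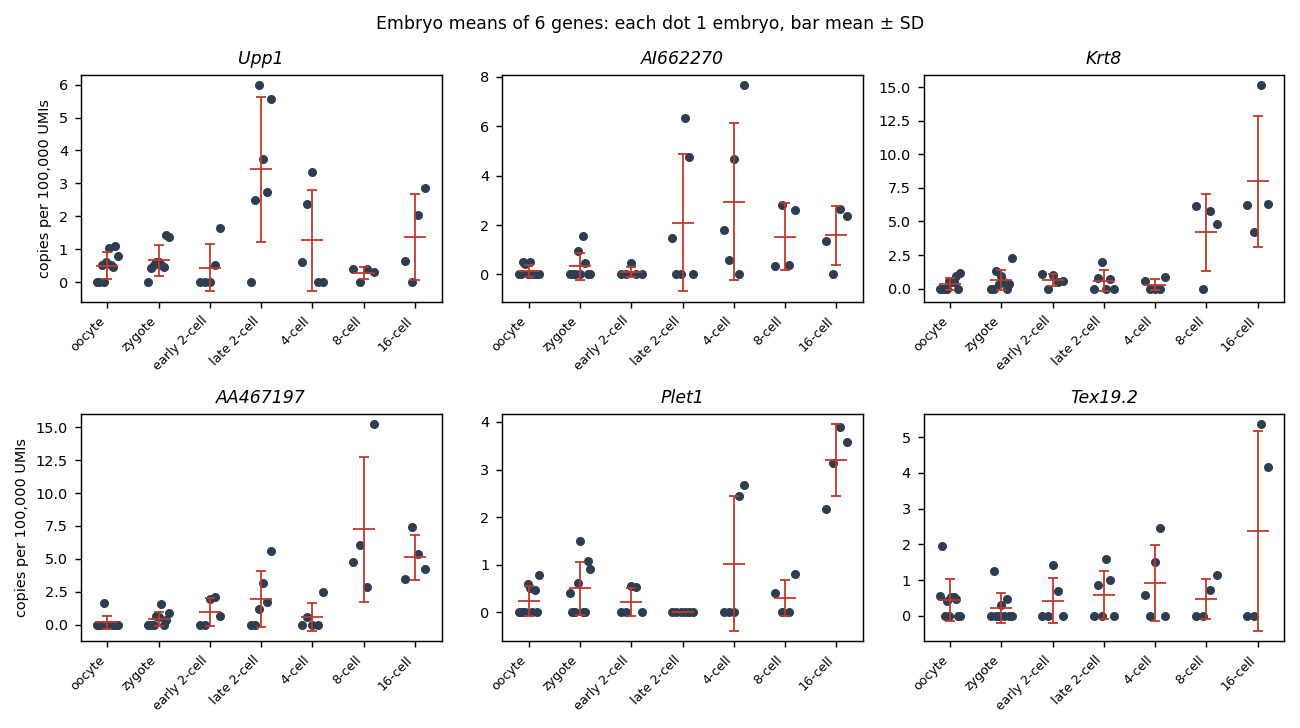
Embryo means (copies per 100,000 UMIs) of the 6 genes called at a step before the blastocyst, with each dot 1 embryo and red bars the mean ± SD over embryos. AA467197 in all 4 8-cell embryos and Krt8 in all but 8-cell embryo 3 stand above the 4-cell embryos, and Plet1 above 8-cell embryos at the 16-cell stage.

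The reads of 65 isoforms were assigned to the 12 genes, of which 25 were full splice matches to an annotated transcript. The median gene had 5 isoforms, counted over all stages, against 11 over the 1449 named genes with a blastocyst mean of 10 or more in the isoform table. The choice held the earlier means of the 12 low, and the 1449 genes were not matched for level, so nothing is read from that gap. The leading isoform carried 75.9% of the blastocyst level of the median gene and 22.0% to 100% over the set, and was a full splice match for 11 genes, with AI662270 led by a new combination of known splice sites. For Spp1 the isoform PB.58178.3 carried 92.5%, at 70.1 copies. It has 7 exons over 1823 bases, and its first exon starts at chr5:104434710, which is 401 bases before the RefSeq start, while PB.58178.6, starting 10 bases after that start, carried 5.06%. Krt8 was spread over a full-length form of 9 exons, PB.28530.2, at 49.1% and 7 shorter forms that lacked its 5′ exons. Rnf130 was the most diffuse, with 12 isoforms and 22.0% in the leading one. Only 3 of these were full splice matches, the others matching part of an annotated transcript. The paper proposes that incomplete reverse transcription might account for some transcripts without a start codon. For the shorter forms of Krt8 and Rnf130 this was not tested.

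AA467197 had a different mix of isoforms in blastocyst cells, all of run 1, than in 32-cell cells, all of run 2. Stage and run cannot be told apart here. PB.43612.8 (5 exons, 625 bases) held 29 of 38 AA467197 UMIs at the 32-cell stage, or 76.3% (95% Wilson interval 60.8% to 87.0%), and 81 of 254 in blastocyst cells, or 31.9% (26.5% to 37.9%). PB.43612.2, also of 5 exons but with both ends farther out (842 bases), held 13.2% (5.75% to 27.3%) and 37.8% (32.1% to 43.9%). The intervals, which cover counting error only, did not overlap between these stages for either isoform. In the 12 blastocyst cells with AA467197 isoform UMIs the share of PB.43612.8 was 17.6% to 50%. In the 16 such 32-cell cells it was 0% to 100% with a median of 100%. The 16-cell stage lay between, with 19 of 48 UMIs, or 39.6% (27.0% to 53.7%), so the share did not move in 1 direction with stage, and run 2 held all 32-cell cells.

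**Figure D5:**
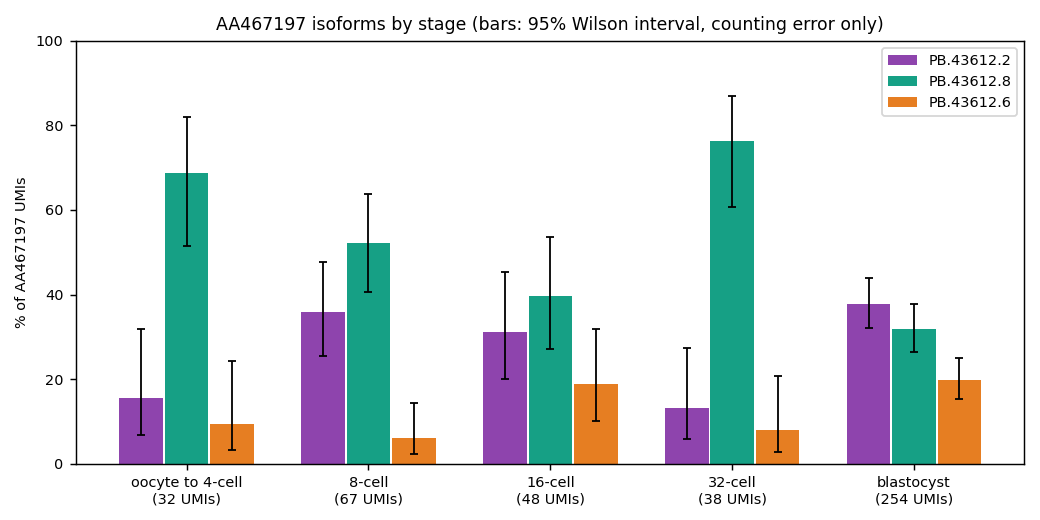
Share of AA467197 UMIs in its 3 main isoforms (bars, % of the gene's UMIs, total below each stage) with 95% Wilson intervals for counting error. PB.43612.8 led from oocyte to 32-cell, and PB.43612.2 led in the blastocyst at 37.8%.

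Promoters were looked up for the 12 genes in RefSeq, as 250 bases before to 50 bases after each annotated start (build GRCm38.p6), and 10 genes had 13 of them. The windows shown are those of Krt8 and Csta1, which went with the trophectoderm sum, of Upp1, which went opposite to it, and of Plet1 and AA467197, which were called at a step before the blastocyst. The leading isoform started 6 bases after the Upp1 start, 15 bases before that of Plet1, 83 before that of AA467197, 89 before that of Csta1 and 156 before that of Krt8. Those of Rnf130 and Glo1, not shown, started 16 bases before and 17 bases after. Those of H2-D1 and Spp1 started 353 and 401 bases before, and that of Tex19.2 288 bases after, outside their windows. The leading Upp1 isoform started 505 and 410 bases after the first and second annotated Upp1 starts, also outside those windows. Capitals mark matches, on either strand, to the TEAD motif CATTCC, the AP-2 motif GCCNNNGGC, the GATA motif AGATAA, the KLF motif CCACCC, the TATA box motif TATAAA, the AP-1 motif TGANTCA and the ETS motif CCGGAA. Each is written 5′ to 3′ on the strand of its gene, Krt8 at chr15:102004293-102004592 on the minus strand, Csta1 at chr16:36131140-36131439 on the minus strand, Upp1 at chr11:9118257-9118556 on the plus strand, Plet1 at chr9:50494275-50494574 on the plus strand and AA467197 at chr2:122637637-122637936 on the plus strand.
Krt8: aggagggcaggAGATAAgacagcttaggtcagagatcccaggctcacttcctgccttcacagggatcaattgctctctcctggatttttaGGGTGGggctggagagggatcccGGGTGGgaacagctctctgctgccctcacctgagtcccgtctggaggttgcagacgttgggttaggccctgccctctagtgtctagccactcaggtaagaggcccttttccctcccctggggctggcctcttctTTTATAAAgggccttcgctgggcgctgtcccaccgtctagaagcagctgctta
Csta1: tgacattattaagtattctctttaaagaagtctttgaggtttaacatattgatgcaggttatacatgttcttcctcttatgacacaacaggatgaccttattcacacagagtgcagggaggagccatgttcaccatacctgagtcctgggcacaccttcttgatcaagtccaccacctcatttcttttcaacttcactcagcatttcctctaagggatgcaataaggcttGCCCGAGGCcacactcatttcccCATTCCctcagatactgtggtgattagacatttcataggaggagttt
Upp1: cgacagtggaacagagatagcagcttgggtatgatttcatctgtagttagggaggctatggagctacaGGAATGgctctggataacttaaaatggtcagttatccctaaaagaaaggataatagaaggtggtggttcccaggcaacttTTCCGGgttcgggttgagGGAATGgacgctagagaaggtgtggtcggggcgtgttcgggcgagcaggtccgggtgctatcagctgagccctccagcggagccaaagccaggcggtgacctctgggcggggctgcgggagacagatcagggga
Plet1: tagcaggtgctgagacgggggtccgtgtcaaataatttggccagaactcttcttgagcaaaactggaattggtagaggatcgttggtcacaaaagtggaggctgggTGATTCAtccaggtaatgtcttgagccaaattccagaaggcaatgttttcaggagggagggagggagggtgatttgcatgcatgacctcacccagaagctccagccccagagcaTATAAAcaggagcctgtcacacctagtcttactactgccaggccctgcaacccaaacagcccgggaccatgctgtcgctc
AA467197: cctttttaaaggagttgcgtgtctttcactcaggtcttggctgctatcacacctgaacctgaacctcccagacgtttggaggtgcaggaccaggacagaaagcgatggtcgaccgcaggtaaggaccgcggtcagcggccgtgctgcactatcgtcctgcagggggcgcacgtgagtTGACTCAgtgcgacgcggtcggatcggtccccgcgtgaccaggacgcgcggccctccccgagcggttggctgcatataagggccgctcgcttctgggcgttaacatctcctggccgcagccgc
In these windows Krt8 held 1 GATA and 2 KLF matches and a TATAAA, read on both strands, at its annotated start. Csta1 held 1 AP-2 match and 1 TEAD match, the latter 3 bases after the start, and Upp1 2 TEAD matches and 1 ETS match. Plet1 held TATAAA beginning 30 bases before its start and 1 AP-1 match, and AA467197 1 AP-1 match. Over all 13 promoters, which for Upp1 overlap each other, a TEAD match stood in 5 (38.5%), beside 14.7% of 32851 promoters, an AP-1 match in 4 (30.8% beside 7.81%), a TATA match in 4 (30.8% beside 13.6%) and an AP-2 match in 4 (30.8% beside 16.6%). The first and second Upp1 windows hold the same AP-1 and the same AP-2 site, and by gene the counts were 4 of 10 for TEAD, 3 of 10 for AP-1, 4 of 10 for TATA and 3 of 10 for AP-2. These counts include matches in windows that did not hold the start of the leading isoform. Among them were the TATA matches of H2-D1 and Spp1, the AP-2 match of H2-D1, and those AP-1 and AP-2 sites of Upp1. KLF (30.8% beside 31.5%), ETS (15.4% beside 14.9%) and GATA (7.69% beside 11.2%) were near the background. With 13 windows each match moves a share by several points, and a match is a string of letters, not a shown binding site. The ratio of observed to expected CpG had a median of 0.306 over the 13 promoters and 0.384 over all, from 0.0747 in Csta1 to 1.08 in Rnf130.

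Run 4, which the choice did not use, gave a further look at oocytes. Over its 16 libraries of intact and divided oocytes (129744 to 289774 UMIs), no isoform of AA467197, Plet1, Gdf3 or Csta1 was listed, and Upp1, Tex19.2 and H2-D1 had at most 4 UMIs in any library. Rnf130 had 2 to 21 UMIs in every library, with a mean of 4.59 copies in the 4 intact oocytes. AI662270 had 2 to 6 UMIs in each intact oocyte. Spp1 was uneven, at 0 to 12 UMIs in intact oocytes, up to 34 in a library of the first set of divided oocytes and up to 52 in the second, or 27.2 copies.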

How the data were processed

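The authors built consensus reads, assigned barcodes and UMIs, used minimap2 for alignment to mm10 and gffcompare to name genes, and made the isoform set with cDNA_Cupcake and SQANTI3. The values deposited by the authors are copies per 100,000 UMIs of the cell, which is CPM divided by 10, for genes and isoforms, and UMI counts of isoforms in run 4. All values of runs 1 to 3 used for genes were whole UMIs within 0.1 (100%), so UMIs were recovered. Cells held 4985 to 389775 UMIs (median 38914). The intervals and floors cover counting error only.

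The stage of a cell was read from its column name, since the GEO samples are sequencing runs and do not give it. The 12 members and all gene lists were chosen with earlier results of these data known. The genes named are all 12 members and the genes next to the limits, with markers of the lists. Cells were averaged per embryo, genes with at least 1 copy in 4 embryos were kept (11682), and log2(embryo mean + 1) was fitted with limma 3.58.1 (R 4.3.3) with array weights and a mean-variance trend over the 7 stages from oocyte to 16-cell. Adjusted p-values are Benjamini-Hochberg over all genes of a comparison. Embryos are the replicates. Alternatives were other limits, stage summaries, pseudocounts and filters, edgeR 4.0.16 and DESeq2 1.42.0 on recovered UMIs, and leaving out embryos or cells. Promoters are from RefSeq. Python 3.11.15 did the rest.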

Additional observations from a re-analysis of the deposited data

Results flagged for a closer look

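In 12 groups of embryos, the highest earlier stage of each gene, 2 held a sample far from the others by the gap relative to the range. The limits used give about 1 in 20 groups for normally distributed values. These low embryo means were not shown to be so, and no rate is read from the count. H2-D1 had 8.297 copies in 4-cell embryo 3, where the nearest of the 5 embryos had 2.448. Rnf130 had 5.472 copies in oocyte 1, where the nearest of the 10 oocytes had 2.763.

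Run 4, which entered no comparison, held UMIs of 6 members above the 3 that a count of 0 allows. In libraries of the second set of divided oocytes the highest values were 52 UMIs for Spp1, 8 for Krt8, 8 for AI662270, 6 for Glo1 and 4 for H2-D1, and an intact oocyte held 21 UMIs of Rnf130. The 8 Krt8 UMIs were all in 1 of the 16 libraries.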

How the results depend on the processing

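The set held 12 genes. It held 4 at a blastocyst mean of at least 20 and 3 (Spp1, Upp1 and Gdf3) at 6 times every earlier stage, 8 to 17 under the other limits and summaries, and 9 to 12 without each blastocyst cell in turn. Sets of similar size could hold other genes. Medians over cells gave 12 genes, 9 of them shared, with Marcks, Scd2 and Tspan3 gained. UMIs summed over cells gave 9, without Csta1, Plet1 and Tex19.2. Cells thinned to 10000 UMIs gave 8, with 7 shared. With the 3 genes at 6 times, the median percentage of the blastocyst mean was 6.33% at the 32-cell stage and 189% in ESCs, and with medians over cells the ESC value was 0%. From early to late 2-cell, 2 genes were called, with 0 at a pseudocount of 0.1 or of 10, 1 without a filter on low values, 1 with edgeR and 0 with DESeq2, also on the genes of the limma fit. Without array weights, H2-D1 and Upp1 were called there, and AI662270 was not, and the single edgeR call was H2-D1. From 4-cell to 8-cell, 2 were called, with 0 at a pseudocount of 10. From 8-cell to 16-cell, 2 were called, with 1 at a pseudocount of 0.1, 0 at a pseudocount of 10, 1 without array weights, 0 with edgeR, 0 with DESeq2, also on the genes of the limma fit, and 1 at an adjusted p under 0.05. Without each embryo in turn, the calls were 1 to 2 at the first step (2 without each early embryo, and 1 to 2 without each late one, which was added after seeing the data), 2 to 2 at the second and 1 to 3 at the third. With the 8-cell and 16-cell embryos fitted alone, 1 was called, and with run 3 as a term 1, both also added after seeing the data. The filter of edgeR left only 4 members to test. On the genes of the limma fit, an alternative chosen after seeing the data, edgeR called 2, 2 and 3. For the counts that moved with other settings, the cause was not tested. No paired analysis was possible because the embryo numbers name embryos within a stage and link none between stages. One UMI was worth 2.11 copies in a median blastocyst cell and 4.40 in a median ESC, which limits levels of a few copies.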

Other observations

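Among the 22 cells of the 32-cell stage, Spearman's rho with the trophectoderm sum without the gene itself was 0.81 for Plet1, 0.64 for Krt8 and 0.34 for Csta1. It was -0.65 for Rnf130, -0.55 for Spp1 and -0.39 for Upp1. Gdf3 had 0.29, where it had -0.75 among blastocyst cells. Plet1 thus stood higher in this order at the 32-cell stage than among the 13 blastocyst cells, where its rho was 0.36. With the inner cell mass sum, rho at the 32-cell stage was -0.14 for Spp1, 0.18 for Gdf3, 0.24 for Rnf130 and 0.36 for Upp1. Among blastocyst cells these genes had 0.85, 0.84, 0.78 and 0.80. The 32-cell cells share 1 run, and these differences were not tested.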
